A study of Pimephales promelas with 338 samples.

Results

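The retina genes rgra, pde6c and grk1a were measured in whole-body RNA of fathead minnow larvae (Pimephales promelas) after 24 h with 1 of 12 chemicals. They were chosen by gene symbol, with earlier results of these data known, and are 3 of the 1832 probes counted with TempO-Seq. That method joins detector oligonucleotides by ligation where they lie side by side on a target transcript and counts the joined products by sequencing. Each gene had 1 probe, rgra_110344, pde6c_110143 and grk1a_109673, and all 3 passed the filter on low counts in every fit. In photoreceptors, light-activated opsin acts through a G protein on a phosphodiesterase that breaks down cyclic GMP, and the ion channels that cyclic GMP holds open then close. A kinase phosphorylates the activated opsin and so begins its shut-off, and a set of retinoid enzymes and carriers in the pigment epithelium and Müller glia returns the chromophore to its light-sensitive form. pde6c encodes the catalytic subunit of the cone phosphodiesterase, grk1a encodes a rhodopsin kinase, and rgra encodes the retinal G-protein-coupled receptor, an opsin known in mammals from pigment epithelium and Müller glia.

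The chemicals were tested as pairs in 6 exposures, and every exposure also held larvae in the solvent DMSO and larvae in caffeine. Each exposure had 3 replicates lettered A, B and C, which are taken here as plates. The pairs were metolachlor OA with 3,4-dichlorophenyl isocyanate, 1(2H)-phthalazinone with gabapentin, metribuzin-DA with 2-tert-butyl-4-methoxyphenol, hydrochlorothiazide with 4-chlorophenyl methyl sulfoxide, cetirizine with fipronil amide, and fexofenadine with cis-nonachlordane. All stocks were made in DMSO, and the DMSO concentration was made equal over the wells. A library is a pool of 5 larvae by design from 1 treatment on 1 plate, with dead larvae left out, so larvae within a pool cannot be told apart. The labels give the stage as larval, and no age or strain. Concentrations ran from 66.67 to 0.021 µM, except for fipronil amide (56.43 to 0.018 µM) and fexofenadine (32.2 to 0.011 µM), and are coded D1 to D8. Nothing in the labels ties D1 or D8 to the strongest concentration, and the code follows the row of the library plate, so code and row cannot be told apart. Slopes are therefore given in log2 units per step towards D1. The exposure plates gave 286 chemical, 18 DMSO and 18 caffeine libraries, and a separate set labelled QA had 8 DMSO and 8 caffeine libraries. The series text gives 110 µM for 8 caffeine replicates, the size of the QA set, and no caffeine concentration is given for the plates. Every code had 3 libraries except D1 of 2-tert-butyl-4-methoxyphenol, an antioxidant food preservative, which had 1, from plate A.

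Library totals had a median of 609598 counts and spanned 112247 to 1029511. Replicate B of cis-nonachlordane D6 had the smallest total, well under the next of 337162. Over the 338 libraries rgra had 92 to 909 counts (median 464.5), pde6c had 110 to 876 (median 551.5) and grk1a had 15 to 199 (median 104). Counting alone gives a coefficient of variation of 4.77% for rgra and 4.37% for pde6c, against 9.5% and 10.4% observed within groups. grk1a, with the fewest counts, varied by 13.2% within groups, and its small differences are least visible at this depth. Because the RNA came from whole larvae, fewer cells of a type and less RNA per cell cannot be told apart, and no sample was retina alone. By the marker lists, a mean of at least 20 counts was taken as present. Liver (5 of 6 markers), neuron (6 of 8), muscle (1 of 1) and inner retina and glia (4 of 8) were detected. The lens list held cryabb alone, with a mean of 21.4 counts, near the cut, so lens RNA is not shown by it. No skin marker of the list was among the probes.

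Levels are given as CPM, the count over the library total on the usual scale. They are compared within a gene, since probes of different genes need not capture their transcripts equally. rgra averaged 773 ± 80.6 CPM in the 18 DMSO libraries of the exposure plates (SD), 729 ± 72.8 in the 18 caffeine libraries, and 773 ± 86.4 in the 286 chemical libraries. pde6c averaged 926 ± 106 CPM in DMSO, 887 ± 105 in caffeine and 919 ± 116 in chemical libraries. grk1a averaged 172 ± 27.2, 164 ± 26.6 and 176 ± 25.2 CPM in the same order. The group means of each gene lay within 1 SD of each other. In the QA set, DMSO libraries averaged 732 ± 61.9 CPM for rgra, 796 ± 45.8 for pde6c and 199 ± 19.9 for grk1a (n = 8).

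The fall of all 3 genes along the code of 2-tert-butyl-4-methoxyphenol was the one trend called among the chemicals. Towards D1, rgra fell by 0.090 ± 0.016 log2 units per step (SE; adjusted p = 3.56e-05, edgeR quasi-likelihood F-test). pde6c fell by 0.049 ± 0.015 per step (adjusted p = 0.013) and grk1a fell by 0.069 ± 0.022 per step (adjusted p = 0.013). These were 3 of 36 member and chemical pairs tested. With this chemical 27.2% of all 1589 probes tested had a called trend, and 12.8% had a falling one. The median slope was -0.069 for the 3 members and -0.0049 for all probes. Because the members were chosen with earlier results of these data known, these medians are a description and not a test. Without code D1, which is 1 library, no member's trend was called. The slopes were then -0.030 for rgra (adjusted p = 0.311), -0.045 for pde6c (adjusted p = 0.0693) and 0.0046 for grk1a (adjusted p = 0.934), and 4.69% of all probes were called. Without plate A, which holds that library, they were -0.024 (adjusted p = 0.523), -0.022 (adjusted p = 0.522) and 0.034 (adjusted p = 0.491). Without plate C the grk1a slope of -0.068 also missed the threshold (adjusted p = 0.0506).

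In the 3 DMSO libraries of that exposure rgra stood at 743, 691 and 805 CPM on plates A, B and C. The lone D1 library held 412 CPM, from 220 counts in a total of 533797. At D2 rgra stood at 558, 624 and 737 CPM, and at D3 at 574, 765 and 691. Plate A was lowest of the 3 plates at both codes for rgra, and the D1, D2 and D3 libraries of plate A were the 3 lowest of all 338 libraries. The next lowest was a QA caffeine library at 575 CPM. Ranks over all 338 libraries, here and below, mix exposures of unlike level. Over all its libraries this exposure had the lowest rgra mean of the 6 (712 CPM against 762 to 832). At D8, the other end of the code, rgra stood at 712, 856 and 808 CPM, which overlaps the DMSO libraries. Of the 22 libraries of 2-tert-butyl-4-methoxyphenol, 12 lay below every DMSO library of the exposure, 4 lay above and 6 lay between. With 3,4-dichlorophenyl isocyanate, whose rgra trend was not called, 12 of 24 lay below its own DMSO libraries, 8 above and 4 between. The remaining chemicals had 0 to 10 of 24 below. The count for 2-tert-butyl-4-methoxyphenol is thus not particular to a called trend.

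pde6c, the cone phosphodiesterase subunit, stood at 772, 782 and 967 CPM in DMSO on plates A, B and C. D1 held 688 CPM, D2 held 586, 682 and 869, and D3 held 601, 725 and 736. The D2 and D3 libraries of plate A were the 2 lowest of all 338 for pde6c, and D1 was not among the 5 lowest. The exposure also had the lowest pde6c mean of the 6 (818 CPM against 891 to 1014). No pde6c library of this chemical lay above the DMSO range, and 12 of 22 lay below it. With fexofenadine, whose pde6c trend was not called, 13 of 24 lay below its own DMSO range, 4 above and 7 inside. The remaining chemicals had 1 to 7 of 24 below. A count like that of 2-tert-butyl-4-methoxyphenol thus also arose without a called trend. grk1a, the rhodopsin kinase, followed another course: it stood at 192, 168 and 196 CPM in DMSO, 223, 199.6 and 236 at D4, and 179.6, 206 and 199 at D3. At D2 it stood at 147, 208 and 185 CPM and at D1 at 112, from 60 counts. Its D4 library of plate C was the highest of all 338 libraries, and its D1 library the fourth lowest. For grk1a this exposure had the highest mean of the 6 (195 CPM against 154 to 177). Of the 22 libraries, 12 lay above and 3 below every DMSO library. With metribuzin-DA, set against the same 3 DMSO libraries, 15 of 24 lay above and 1 below, and no grk1a code of either chemical was called higher. The share of all probes with such counts was not counted, here or for the other counts of libraries against a DMSO range.

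**Figure D1:**
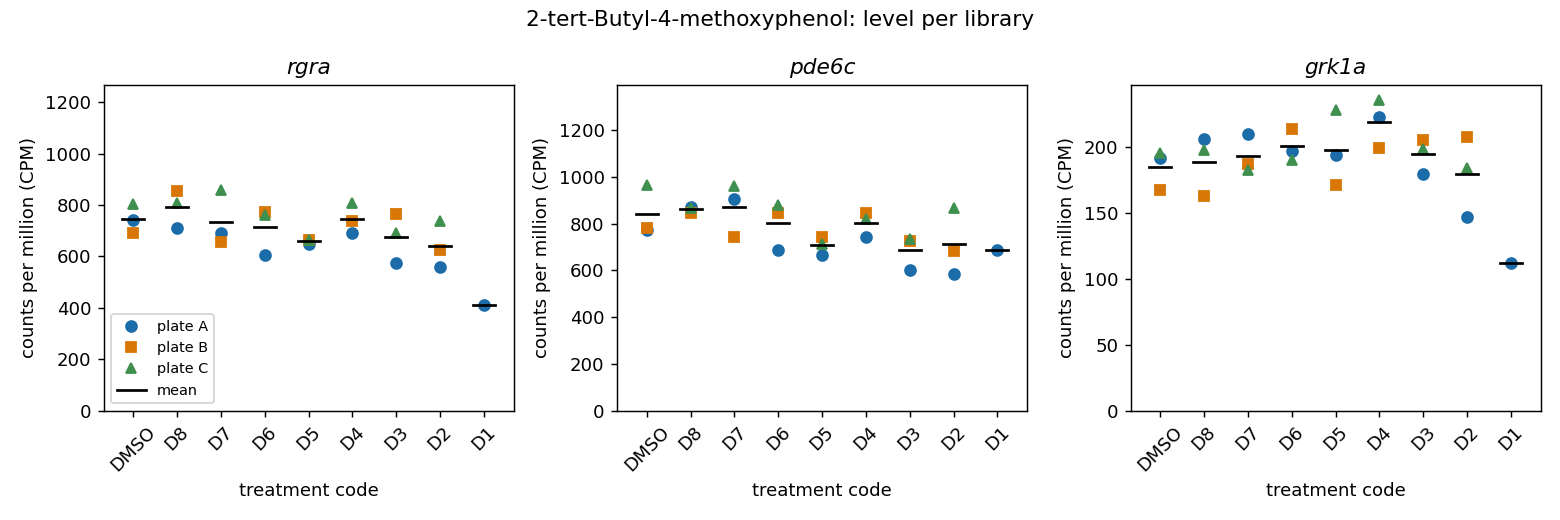
Levels of rgra, pde6c and grk1a in every DMSO and 2-tert-butyl-4-methoxyphenol library, in CPM by treatment code, with 1 symbol per plate and a bar for the group mean. The lone D1 library lies lowest for rgra (412 CPM) and grk1a (112 CPM), while for pde6c plate A is lower at D2 (586 CPM) than at D1 (688 CPM).

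Within plates and without D1, the least-squares slope of log2 CPM over D8 to D2 was -0.050, -0.036 and -0.034 per step for rgra on plates A, B and C. For pde6c it was -0.10, -0.036 and -0.031, and for grk1a -0.063, 0.043 and 0.0089. rgra and pde6c thus had negative slopes on all 3 plates and grk1a on plate A alone, as a description of 7 libraries per plate. The share of all probes with the same sign on every plate was not counted. The mean level also differed by plate over D2 to D8, with geometric means for rgra of 638, 721 and 759 CPM on plates A, B and C. The part of the plate in the trend was not tested apart from the fits that leave a plate out or take it as a term. In this exposure the letters also lay on different library plates, so exposure plate and library plate cannot be told apart.

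Code by code against DMSO, the D1 library of 2-tert-butyl-4-methoxyphenol gave the single call among 288 tests of the members. rgra was lower by a log2 fold change of -0.91 ± 0.17 there (SE; adjusted p = 0.000452, edgeR, over all probes and the 8 codes). grk1a had -0.78 ± 0.23 (adjusted p = 0.0608) and pde6c had -0.34 ± 0.16 (adjusted p = 0.434), neither past the threshold. At that code 4.78% of all probes were called lower, and over every code of the 12 chemicals 0.249% of tests were called. With 1 library the group's spread is taken from the other groups of the exposure, and nothing repeats it. At D2, with 3 libraries, the log2 fold changes were -0.23 ± 0.11 for rgra (adjusted p = 0.516), -0.24 ± 0.11 for pde6c (adjusted p = 0.423) and -0.052 ± 0.15 for grk1a (adjusted p = 0.974).

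Metribuzin-DA, a degradate of the herbicide metribuzin, shared its plates and DMSO libraries with 2-tert-butyl-4-methoxyphenol. Its rgra libraries stood at 693, 652 and 723 CPM at D1 and 691, 656 and 802 at D8, so the ends of the code overlapped. Its slopes were -0.011 ± 0.012 for rgra, -0.0017 ± 0.012 for pde6c and -0.0073 ± 0.016 for grk1a, and none was called. The slope of rgra differed between the 2 chemicals by 0.079 ± 0.020 per step (metribuzin-DA minus 2-tert-butyl-4-methoxyphenol; adjusted p = 0.00522, edgeR). For pde6c the difference was 0.048 ± 0.019 (adjusted p = 0.0891) and for grk1a 0.062 ± 0.027 (adjusted p = 0.113). In this exposure 14.7% of all probes had a called slope difference. Without D1 the rgra difference was 0.025 (adjusted p = 0.825), and without plate A it was 0.012 (adjusted p = 0.936). In the 5 other exposures no slope difference of a member was called, where 1.16% of all tests were called.

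Other genes of the visual pathway on the panel were few. Beside the member rgra, the visual cycle list held rlbp1b and lrata, and both fell towards D1 of 2-tert-butyl-4-methoxyphenol. The list median of -0.090 is the slope of rgra itself. rlbp1b, a carrier of retinaldehyde known from Müller glia in zebrafish, averaged 199 ± 8.61 CPM in DMSO (SD, n = 3) against 127 CPM in the D1 library, with a slope of -0.075 ± 0.026 (adjusted p = 0.0237). lrata, the acyltransferase that esterifies retinol for storage, had 8 to 23 counts in the DMSO libraries and 0 in the D1 library. A count of 0 allows up to 3 counts there, or 5.62 CPM, so lrata was at least 3.71-fold lower than its DMSO mean of 20.8 CPM, for counting error only. Its trend was called (adjusted p = 0.0034), and its fitted slope depends on the prior count and is not given. Without D1 neither was called, with slopes of -0.012 for rlbp1b (adjusted p = 0.84) and -0.040 for lrata (adjusted p = 0.795).

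The phototransduction list had 4 genes on the panel, and the 2 that fell were the members pde6c and grk1a. The list median of -0.016 includes them. pde6gb, an inhibitory subunit of the phosphodiesterase, had a slope of 0.063 ± 0.056 (adjusted p = 0.439) and averaged 43.2 ± 9.90 CPM in DMSO (SD, n = 3) against 76.8 CPM at D1. rhol, a rhodopsin-like opsin gene, had a slope of 0.017 ± 0.047 (adjusted p = 0.832). Both are low in counts, with means of 31 and 15.8 counts over all libraries, so their changes are measured with less precision than those of the members. The list thus held members that fell and members whose slopes were positive and did not pass the test.

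Around these genes, 1 of 4 photoreceptor structure and transcription factor genes rose and 2 fell (list median 0.019). Of all 1589 probes tested, 27.2% had a called trend with this chemical. The list counts for this chemical, here and in the next 2 paragraphs, are therefore a description and not a response of a list. prdm1a, a transcriptional repressor active in many tissues, rose by 0.19 ± 0.047 per step (adjusted p = 0.00154). slc1a2b, a glutamate transporter also made in brain glia, fell by 0.098 ± 0.027 (adjusted p = 0.00475), and neurod1, a transcription factor of neurons and photoreceptor precursors, fell by 0.051 ± 0.018 (adjusted p = 0.0237). Among 8 inner retina and glia genes (list median -0.0053), cahz and gad1a fell and vsx1 rose. cahz, a carbonic anhydrase of Müller glia and red blood cells in zebrafish, averaged 456 ± 20.8 CPM in DMSO (SD, n = 3) against 200.5 CPM in the D1 library, with a slope of -0.087 ± 0.018 (adjusted p = 0.000248). vsx1, a homeobox factor of bipolar cells, rose by 0.095 ± 0.026 (adjusted p = 0.00392), and gad1a, which makes the transmitter GABA, fell by 0.15 ± 0.056 (adjusted p = 0.0433). The single gene of the lens list, cryabb, a small heat shock chaperone, fell by 0.21 ± 0.058 (adjusted p = 0.00403). It had 17 to 34 counts in DMSO and 5 counts at D1, and whether the change lies in the lens was not tested. The single pineal gene and the single pigment cell gene on the panel did not pass the test. Counts were also low for prdm1a (8 to 21 in DMSO and 49 at D1) and gad1a (12 to 21 in DMSO and 4 at D1). prdm1a averaged 24.3 CPM in DMSO and 21.3 at D2, against 91.8 in the lone D1 library.

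Among the 14 clock genes on the panel, 13 were tested, of which nfil3 was low in counts (8 to 26 in DMSO and 50 in the D1 library). bhlhe40 and nfil3, which are transcriptional repressors, rose by 0.11 ± 0.019 (adjusted p = 9.62e-06) and 0.19 ± 0.052 (adjusted p = 0.00483). per3, a period gene, fell by 0.085 ± 0.020 (adjusted p = 0.00138), and the list median was 0.046. Without D1, no gene of the visual, photoreceptor, inner retina or lens lists was called, and of the clock list per1a fell (-0.12 ± 0.037, adjusted p = 0.0427).

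Markers of other tissues moved in the same D1 library, and 2 liver markers also without it. Among 8 neuron markers, 3 fell along the code (gap43, map2 and snap25a, named after their values were seen), with a list median of -0.064. Summed over the 8, the neuron markers stood at 2047 to 2280 CPM in the DMSO libraries, 1487 in the D1 library, 1964 to 2365 at D2 and 2227 to 2522 at D8. Of 6 liver markers, fgb and fgg rose and fabp10a fell (named after their values were seen). Their sum was 110500 to 122100 CPM in DMSO, 78880 at D1, 107300 to 147000 at D2 and 118400 to 124900 at D8. apoa2 made up most of that sum, with 112200 CPM in DMSO and 72030 at D1, while fgb stood at 2887 and 6107 CPM and fgg at 262 and 433. At D2 fgb stood at 4945 ± 1328 CPM and fgg at 441 ± 42.8 (SD, n = 3). Of the 6 liver markers 2 were called higher at D2, against 36 of all 1589 probes. In the trend without D1, 2 liver markers rose, against 54 of 1515 probes. The single muscle marker was at 908.6 CPM at D1, inside its DMSO range of 619.1 to 1307 CPM. No list's defining markers were all at 0. The part of tissue composition in the fall of the members was not tested.

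**Figure D2:**
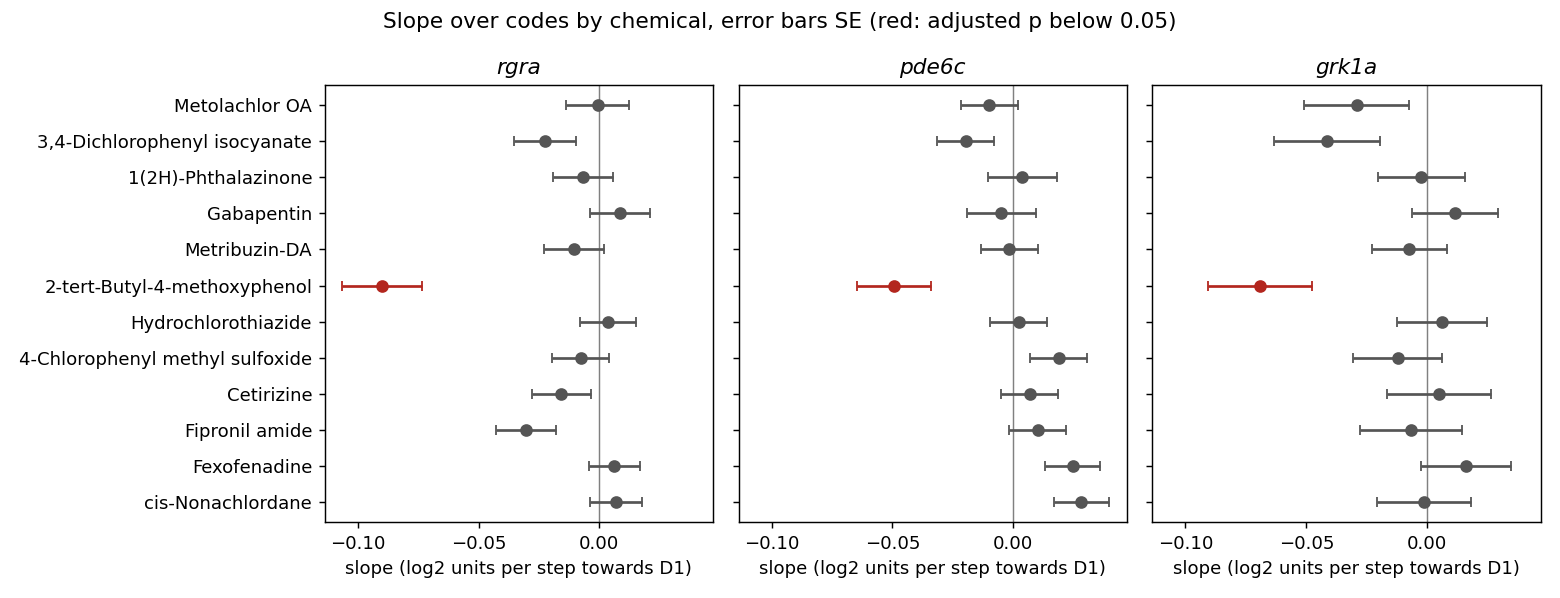
Slope of each member over the codes of each chemical, in log2 units per step towards D1, with bars of 1 SE and red points for an adjusted p below the threshold. The 3 red points are those of 2-tert-butyl-4-methoxyphenol, and the other slopes lie between -0.042 and 0.028.

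In the other 11 chemicals no member had a called trend. The 33 slopes ran from -0.042 to 0.028 per step with SEs of 0.011 to 0.022, of which 18 were negative and 15 positive. The smallest adjusted p was 0.193, and 3 slopes had an unadjusted p below 0.05. These were rgra with fipronil amide (-0.030 ± 0.012, adjusted p = 0.717), pde6c with fexofenadine (0.025 ± 0.011, adjusted p = 0.632) and pde6c with cis-nonachlordane (0.028 ± 0.011, adjusted p = 0.63). DESeq2 called the same number of member trends over the 12 chemicals, 3 of 36. The share of all probes with a called trend was 18.7% for 3,4-dichlorophenyl isocyanate, 0.202% for cetirizine, 0.0629% for metribuzin-DA and 0.0% for each of the other 8 chemicals.

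3,4-Dichlorophenyl isocyanate, an intermediate of herbicide synthesis, was the other chemical with many called trends, and its member slopes were all negative without passing the test. They were -0.023 ± 0.013 for rgra (adjusted p = 0.239), -0.020 ± 0.012 for pde6c (adjusted p = 0.264) and -0.042 ± 0.022 for grk1a (adjusted p = 0.193). Scaled by library totals in place of TMM, the slopes were -0.0017 for rgra and -0.020 for grk1a, and that of pde6c turned sign to 0.00011, with the median slope of all probes higher by 0.021. grk1a stood at 118, 169 and 85.0 CPM at D1 of this chemical, against 166, 192 and 115 in DMSO. The D1 library of plate C was the lowest of all 338 for grk1a, with the DMSO library of plate C also the lowest of its group, and the groups overlapped. The D1 log2 fold change was -0.40 ± 0.21 (adjusted p = 0.618). rgra at D1 stood at 837, 722 and 799 CPM against 778, 740 and 774 in DMSO, with no separation. In its trend, lrata of the visual cycle list fell (-0.14 ± 0.045, adjusted p = 0.0253), a call lost without D1 (-0.098, adjusted p = 0.321), while rlbp1b had a slope of -0.0050 (adjusted p = 0.853). Of 4 photoreceptor structure and transcription factor genes 1 fell. Among 8 inner retina and glia genes 1 rose and 1 fell, and 2 of 13 clock genes tested rose. Without D1 no gene of these lists was called.

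Metolachlor OA, a degradate of the herbicide metolachlor tested on the same plates, had slopes of -0.00060, -0.0098 and -0.029 for rgra, pde6c and grk1a. None was called, and 22 of 24 libraries lay inside the DMSO range for grk1a. For rgra 3 lay inside, 7 below and 14 above, and for pde6c 11 lay inside, 6 below and 7 above. With 1(2H)-phthalazinone, a nitrogen heterocycle, the slopes were -0.0066, 0.0038 and -0.0023, and with gabapentin, an anticonvulsant drug, 0.0085, -0.0049 and 0.012. All 16 codes of that pair had pde6c below DMSO (log2 fold changes of -0.26 to -0.040) and grk1a above it (0.012 to 0.37). Both chemicals are set against the same 3 DMSO libraries, which stood at 893, 1192 and 1014 CPM for pde6c, the highest DMSO mean of the 6 exposures. The grk1a change at D4 of 1(2H)-phthalazinone, 0.37 ± 0.16, was not called (adjusted p = 1.0). Its libraries there stood at 203, 192 and 217 CPM and its DMSO libraries at 173, 138 and 176, so these groups did not overlap. That change is picked as the highest of 264 code contrasts, and the share of all probes without overlap was not counted. Over all codes, 14 of 24 libraries of 1(2H)-phthalazinone and 13 of 24 of gabapentin lay above every DMSO library for grk1a, and 0 below. The highest rgra level of all 338 libraries, 1207 CPM, belonged to gabapentin D5 replicate C, whose partners on plates A and B stood at 778 and 796 CPM.

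Hydrochlorothiazide, a diuretic, had slopes of 0.0037, 0.0023 and 0.0063 for rgra, pde6c and grk1a, and 4-chlorophenyl methyl sulfoxide had -0.0077, 0.019 and -0.012. For rgra, 21 and 22 of their 24 libraries lay inside the range of the DMSO libraries of the exposure. For pde6c 12 and 14 lay inside, and for grk1a 9 and 14. With hydrochlorothiazide, 6 grk1a libraries lay below that range and 9 above. Cetirizine, an antihistamine, had slopes of -0.016, 0.0068 and 0.0049, and fipronil amide, a degradate of the insecticide fipronil, had -0.030, 0.010 and -0.0066. All 16 codes of this pair had rgra above DMSO, by log2 fold changes of 0.10 to 0.31 for cetirizine and by 0.0053 to 0.28 for fipronil amide. The 3 DMSO libraries they share stood at 695, 643 and 763 CPM, the lowest DMSO mean of the 6 exposures. The change was widest at D7 of cetirizine, where rgra stood at 888, 815 and 928 CPM, above all 3 DMSO libraries (0.31 ± 0.11, adjusted p = 0.999). That code is picked as the widest of the 16, and the share of all probes without overlap was not counted. Over all codes, 14 of 24 libraries of cetirizine lay above every DMSO library and 0 below. With fipronil amide 12 of 24 lay above and 3 below. pde6c at D1 of fipronil amide stood at 1328, 1163 and 938 CPM, of which the plate A library was the highest of all 338.

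Fexofenadine, another antihistamine, had slopes of 0.0062, 0.025 and 0.016 for rgra, pde6c and grk1a. cis-Nonachlordane, a constituent of the insecticide chlordane, had 0.0068, 0.028 and -0.0011. For pde6c, code means ran from 788 ± 56.1 CPM at D8 to 1002 ± 63.1 at D2 of fexofenadine (SD, n = 3), against 943 ± 48.7 in DMSO. With cis-nonachlordane they ran from 846 ± 65.0 at D5 to 1038 ± 131 at D1. Over the 11 chemicals, the 264 code contrasts of the members ran from -0.40 to 0.37, with SEs of 0.098 to 0.21. None was called with edgeR and 9 had an unadjusted p below 0.05. DESeq2 called 1 of the 288 contrasts of all 12 chemicals. Of all probes, 0.0654% of the contrasts of these 11 chemicals were called.

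**Figure D3:**
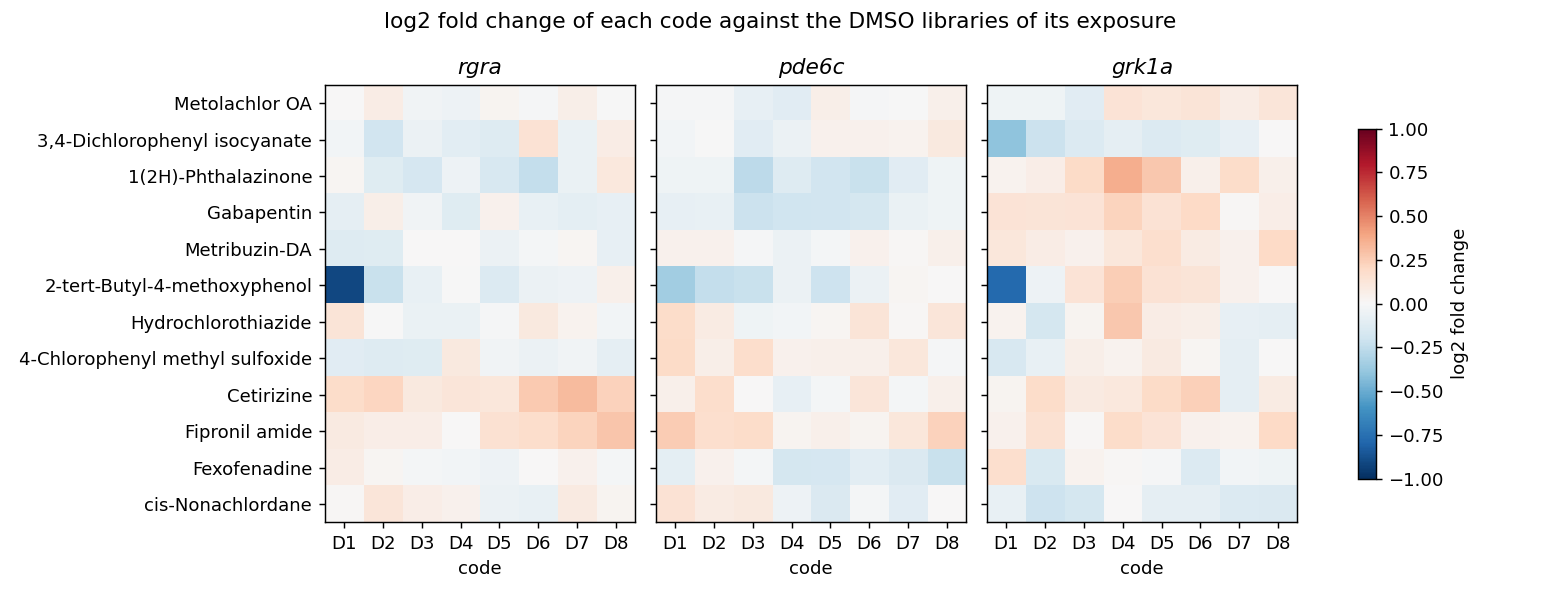
log2 fold change of each code (D1 to D8, columns) against the DMSO libraries of its exposure, for each chemical (rows) and member (panels), on a scale from -1 to 1 where blue is lower and red higher than DMSO. The darkest cells are rgra (-0.91) and grk1a (-0.78) at D1 of 2-tert-butyl-4-methoxyphenol, and the row of cetirizine is red at every code for rgra.

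Caffeine, an adenosine receptor antagonist that also inhibits phosphodiesterases, was the positive control of every exposure. Every caffeine library has a title that says DMSO, so the caffeine comparisons rest on the treatment label alone. On the exposure plates rgra ran from 609.7 to 859 CPM with a median of 721 in caffeine, and from 643 to 956 with a median of 772 in DMSO. The groups overlapped, and the log2 fold change was -0.058 ± 0.049 (SE; adjusted p = 0.612, edgeR with exposure as a term). pde6c had a change of -0.035 ± 0.046 (adjusted p = 0.777) and grk1a of -0.040 ± 0.077 (adjusted p = 0.873). None of the members was called, with no unadjusted p below 0.05, while 4.09% of all probes were called. Set side by side on the same plate, caffeine was higher than DMSO on 8 of 18 plates for rgra, 8 of 18 for pde6c and 6 of 18 for grk1a.

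The sign of the rgra difference was not the same in every exposure. On the plates of 1(2H)-phthalazinone and gabapentin, caffeine libraries stood at 719.9, 722 and 711 CPM and DMSO libraries at 785, 956 and 897, with no overlap. In the exposure of cetirizine and fipronil amide, caffeine libraries stood at 803, 774 and 859 CPM and DMSO libraries at 695, 643 and 763, again with no overlap and in the other direction. The groups also did not overlap with metolachlor OA and 3,4-dichlorophenyl isocyanate, where caffeine libraries were higher (791 to 823 CPM against 740.2 to 778), or with fexofenadine and cis-nonachlordane, where they were lower (609.7 to 698 CPM against 715 to 809). In the remaining 2 exposures caffeine was higher on 1 of 3 plates each and the groups overlapped. These levels are CPM by library totals, and the share of all probes without overlap was not counted. The fitted changes that follow were scaled by TMM factors, and none was called. The fitted changes were -0.26 ± 0.11 with 1(2H)-phthalazinone and gabapentin (adjusted p = 0.36), 0.26 ± 0.11 with cetirizine and fipronil amide (adjusted p = 0.698), 0.032 ± 0.11 with metolachlor OA (adjusted p = 1.0) and -0.13 ± 0.11 with fexofenadine (adjusted p = 0.86). A test for unequal caffeine changes among the exposures, chosen after the data were seen, called 0.0% of 1506 probes, with 64 at an unadjusted p below 0.05. rgra was among these 64, with an unadjusted p of 0.0364 in that test. The adjusted p of the test was 0.99 for rgra, 0.99 for pde6c and 0.994 for grk1a. For pde6c, caffeine was higher on 3 of 3 plates in the exposures of metolachlor OA and of cetirizine, on 2 of 3 with metribuzin-DA, and on 0 of 3 with gabapentin, hydrochlorothiazide and fexofenadine.

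In the QA set rgra ran from 575 to 741 CPM with a median of 664 (caffeine, n = 8), against 620 to 813 with a median of 734 (DMSO, n = 8). The ranges overlapped, and the change was -0.10 ± 0.058 (adjusted p = 0.581). pde6c ran from 665 to 1005 CPM in caffeine and from 747 to 862 in DMSO (change 0.034 ± 0.064, adjusted p = 0.912). grk1a ran from 145 to 230 CPM in caffeine and from 167 to 222 in DMSO (change 0.0051 ± 0.090, adjusted p = 0.997). In this set 1.28% of all probes were called. The caffeine change did not differ detectably between the QA set and the plates for any member (adjusted p = 0.999 each), and 0.0% of 1465 probes were called, with 49 at an unadjusted p below 0.05 and 0 called by DESeq2.

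**Figure D4:**
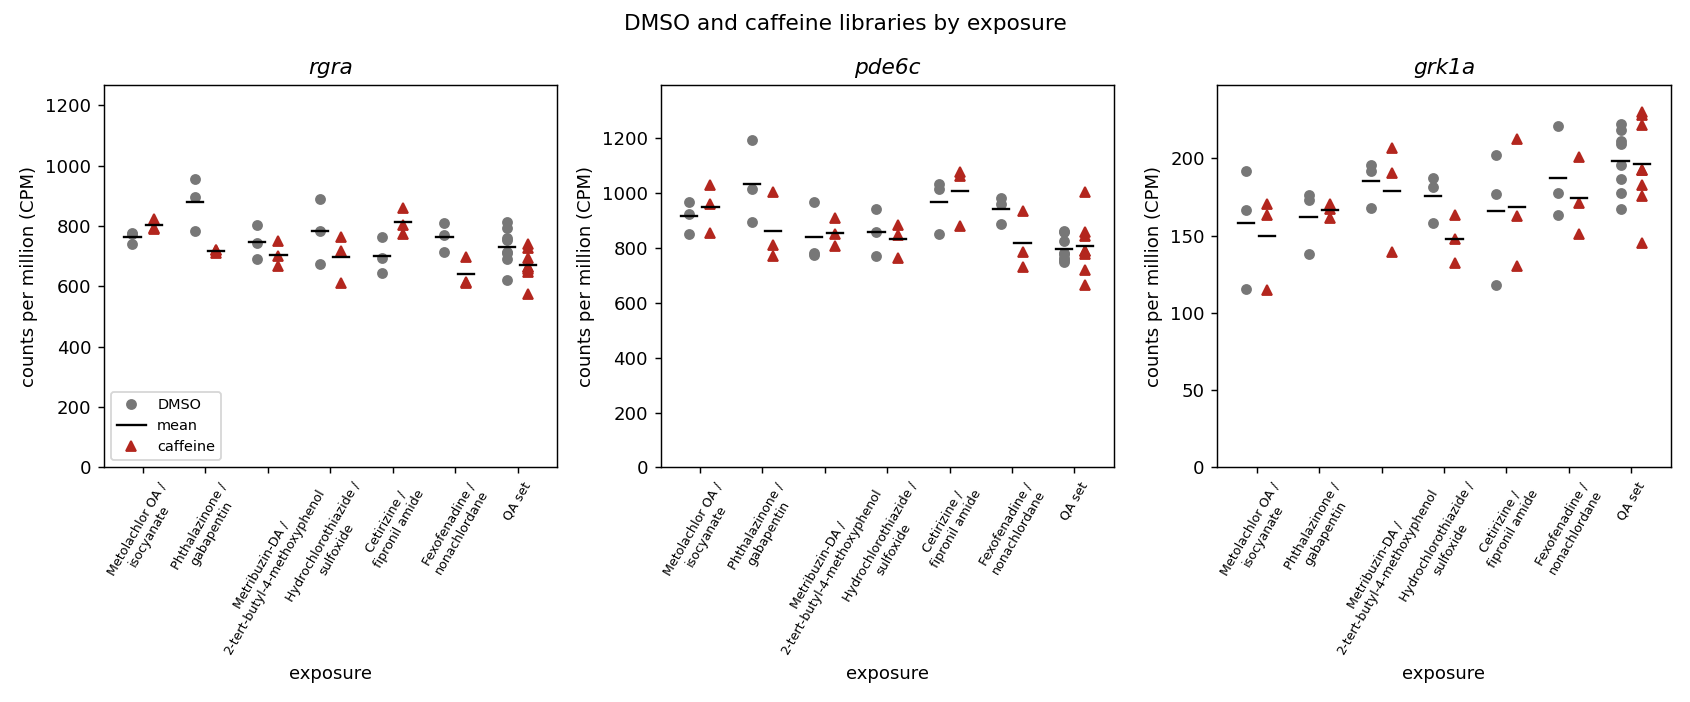
Levels of the members in every DMSO (circles) and caffeine (triangles) library, in CPM by exposure and in the QA set, with a bar for each group mean. For rgra, caffeine libraries lie below every DMSO library in the exposures of 1(2H)-phthalazinone and fexofenadine and above in those of metolachlor OA and cetirizine. They overlap DMSO in the remaining exposures and in the QA set. None of these changes was called, and the share of all probes without overlap was not counted. Caffeine libraries are those with that treatment label, though their titles say DMSO.

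In DMSO alone, the mean of rgra ran from 700.2 ± 60.4 CPM in the exposure of cetirizine and fipronil amide to 879 ± 87.0 in that of 1(2H)-phthalazinone and gabapentin (SD, n = 3). The exposures of metribuzin-DA (746 ± 56.7), metolachlor OA (764 ± 20.7), fexofenadine (765 ± 47.1) and hydrochlorothiazide (783 ± 109) lay between in this order. pde6c ran from 840.4 ± 109.8 CPM with metribuzin-DA to 1033 ± 150.0 with 1(2H)-phthalazinone. grk1a ran from 158 ± 38.9 with metolachlor OA to 187 ± 29.8 with fexofenadine. Neighbours in each order differed by less than the larger SD of the pair. A test of any difference among the 6 exposures gave adjusted p values of 0.183 for rgra, 0.565 for pde6c and 0.678 for grk1a, while 9.77% of all probes were called.

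The members did not vary closely together. Over all libraries of the exposure plates, as deviations of log2 CPM from the mean of the library's exposure, Pearson's r was 0.207 between rgra and pde6c, 0.13 between rgra and grk1a and -0.0017 between pde6c and grk1a. Among 1108 probes, pde6c ranked 37th in likeness to rgra. The probes most like rgra were dla (r = 0.295), pcna (0.283), rpa3 (0.274), bnc2 (0.269) and mrps17 (0.266), with the visual cycle gene rlbp1b next at 0.26. Those most like pde6c were hmgb1b (0.415), oaz1a (0.407), map2 (0.365), her6 (0.346) and hnf4a (0.322). Those most like grk1a were id2a (0.537), rps27a (0.532), puf60a (0.528), nfyba (0.513) and rps13 (0.51). Libraries share plates, totals and treatments, so these values describe the libraries and carry no test, and those of rgra are weak. As deviations from the mean of the library's treatment group, r fell to 0.148 for rgra and rlbp1b (rank 39) and to 0.082 for rgra and pde6c (rank 172), and 0 of the 5 probes named for rgra stayed among its 5 most alike, against 4 for pde6c and 4 for grk1a.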

How the data were processed

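The authors deposited a count for every probe and library, and the whole numbers in the file show no normalization. Base calling used bcl2fastq per the submitters' processing notes; aligner and build were not given in the sources used here, and no coordinates are shown. Of 1829 symbols, 1721 were found in the RefSeq names of fPimPro1.hap1.1. Groups follow the treatment labels. All 26 caffeine libraries, on the plates and in the QA set, have titles that say DMSO, while their treatment says caffeine. The sulfoxide of the sample labels is a sulfone in the series text. Nothing says whether the QA libraries are separate exposures, so their p-values may measure technical spread.

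Tests used the quasi-likelihood F-test of edgeR 4.0.16, with limma 3.58.1 under R 4.3.3, TMM factors and filterByExpr at a minimum count of 10, with Benjamini-Hochberg adjustment at 0.05 over all probes tested (and the 8 codes together per chemical). Fits were made by exposure, 1 mean for each group, slopes being linear contrasts over the codes. All tests are two-sided. The SE of an effect was taken from its size and F value. CPM uses library totals. DESeq2 1.42.0 and other settings were alternatives. The trend script was checked on simulated data with replicates at every code and slopes larger than those called for the members. That check does not cover a code with a single library. The members and lists were chosen with earlier results of these data known. The named genes were the members, listed genes that passed a test described (at most the 4 smallest p per list) and, per member, the 5 probes with the highest r, at a prior count of 2. Outside the trend of 2-tert-butyl-4-methoxyphenol, listed genes that passed were named in part or not at all. A letter was taken to mark a shared exposure plate within an exposure. Except in the exposures of cetirizine and of fexofenadine, the labels give a chemical's code the same well under A, B and C. The letters thus also lay on different library plates there, so exposure plate and library plate cannot be told apart. For the C libraries of fexofenadine and cis-nonachlordane the labels give the same wells, so these did not share a library plate. Libraries deviated together by letter: the median correlation of deviations ran from 0.0103 to 0.217 within a letter and from -0.0693 to -0.024 between letters. The plate was an alternative term. PCR reads carry no stated molecular identifiers, so floors cover counting error only.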

Additional observations from a re-analysis of the deposited data

Results flagged for a closer look

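The slope of rgra over the codes differed between the 2 chemicals that shared plates and DMSO libraries, metribuzin-DA and 2-tert-butyl-4-methoxyphenol, by 0.079 log2 units per step (SE 0.020; adjusted p = 0.00522, edgeR). It stands out because the difference itself passed the test, as it did for 14.7% of all probes in this exposure. The slopes were -0.011 for metribuzin-DA and -0.090 for 2-tert-butyl-4-methoxyphenol. The call was lost in both fits that leave out the lone D1 library of 2-tert-butyl-4-methoxyphenol together with others: the difference was 0.025 without code D1 (adjusted p = 0.825) and 0.012 without plate A (adjusted p = 0.936). By Dixon's ratio for an outlying value, no highest or lowest QA library of a group passed the critical value of 0.526 for any member. The largest ratio was 0.438, for the lowest rgra library in QA caffeine, and a smaller departure is not excluded.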

How the results depend on the processing

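Of 36 member trends, 3 were called, and leaving out a plate gave 0 to 3, while leaving out code D1 gave 0. Of 288 code contrasts 1 was called, and 1 without plate B or without plate C. Without plate A, D1 of 2-tert-butyl-4-methoxyphenol had no library. The called contrast could not be tested there, and 0 of the 285 remaining contrasts were called. Of 18 slope differences 1 was called, with 0 to 1 when a plate was left out and 0 without code D1. In each case 0 belongs to the fit without plate A, which holds the lone D1 library of 2-tert-butyl-4-methoxyphenol. The grk1a slope of that chemical ran from -0.085 to 0.034 when a plate was left out, turning without plate A, and was 0.0046 without D1. Its slope difference ran from -0.032 (without plate A) to 0.082, and was -0.017 without D1. The pde6c slope of 3,4-dichlorophenyl isocyanate turned to 0.00011 with library totals alone. Of the 15 probes named as most like a member, 8 remained with deviations from treatment means, none of them for rgra. With the plate letter as a replicate block, the slopes of 2-tert-butyl-4-methoxyphenol were -0.087 for rgra, -0.046 for pde6c and -0.070 for grk1a, and no call of a member changed. The counts of called members for caffeine and for DMSO between exposures were 0 under every alternative run. The adjusted p of rgra at D1 ran from 0.000104 to 0.0167 in the alternatives that hold that library, all of which reuse the same single library. The alternatives with library totals alone, without D1 for the slope difference, and the test of caffeine between exposures were chosen after seeing the data. Depth limits grk1a most, and D1 of 2-tert-butyl-4-methoxyphenol has no replicate.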
